A study of Mus musculus with 12 samples.

Results

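The microarray used here carried 8497 probes whose identifiers begin with ASMM10EP3B, called EP3B probes below. They were chosen by that prefix and by the non-control mark in the array files, and no measured value entered the choice. They made up 14.0% of the 60706 probes that remained once control, spike-in and negative-control sequences were set aside. The main point of comparison is the larger class whose identifiers begin with ASMM10EP3A (EP3A probes, 48057). The files do not say what the letters A and B stand for, and each EP3B probe is known by its identifier alone. The probes could therefore not be assigned to genes, and no probe sequence is shown.

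The arrays measured kidneys of male C57BL/6 mice, 6 to 8 weeks old. All animals, controls included, received glyoxylate by intraperitoneal injection (200 µl each day at 100 mg/kg, over 7 days), which models nephrocalcinosis from calcium oxalate. There were 3 wild-type (WT) mice and 3 METTL3-cKO mice, and the labels do not say in which kidney cells the deletion was made. Total RNA of each kidney was split with a polyclonal rabbit antibody against N6-methyladenosine (m6A). The bound RNA (IP) was labelled with Cy5 and the unbound RNA (supernatant) with Cy3, and both were hybridised to 1 array per animal, which gave 12 samples on 6 arrays.

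N6-methyladenosine is an abundant internal modification of messenger RNA, and it is also found on noncoding RNA. METTL3 is the catalytic subunit of the nuclear complex that writes it, and reader proteins of the YTH family bind the mark and alter the splicing, translation or decay of the transcript. In an antibody fractionation, transcripts of which a larger part carries the mark give a higher ratio of bound to unbound RNA.

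No probe was paired with Mettl3, so the genotype labels could not be checked against the targeted gene. Kidney cell type markers and genes of the m6A machinery could not be read among the EP3B probes for the same reason. Whole kidney was measured, so fewer cells of a type and less RNA per cell cannot be told apart. No dye was swapped, so a dye effect and antibody recovery cannot be told apart in a single ratio. Per the file headers the arrays fall into 2 scans, with WT arrays 1 and 3 in the first and WT array 2 and the 3 cKO arrays in the second. The scans are numbered for reference only, and by the header times the first is the later one. Values within the second scan are given where they bear on a result.

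EP3B probes were detected less often than EP3A probes in both fractions. Detection means that the scanner software marked a spot as well above background. In the IP, 41.3%, 41.9% and 42.9% of EP3B probes were detected on WT arrays 1 to 3, and 43.5%, 44.6% and 42.8% on cKO arrays 1 to 3. The same shares for EP3A probes ran from 55.1% to 59.2%. The difference was -14.2 ± 0.549 percentage points (SD, n = 6 arrays) and had the same sign on 6 of 6 arrays (two-sided exact sign-flip permutation test, p = 0.0312, the smallest that 6 arrays allow, adjusted p = 0.0391 over 5 class comparisons). Among the 45 negative-control spots of each array, at most 2 were detected in the IP and at most 1 in the supernatant.

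In the supernatant, 29.1%, 40.8% and 23.0% of EP3B probes were detected on WT arrays 1 to 3, and 43.9%, 37.9% and 41.2% on the cKO arrays. The low values were those of WT arrays 1 and 3, the arrays of the first scan, while WT array 2 lay within the range of the cKO arrays. EP3B probes were again below EP3A probes on 6 of 6 arrays, with a difference of -13.3 ± 2.18 percentage points (SD, adjusted exact p = 0.0391). This gap was -11.7 ± 1.88 points in WT and -15.0 ± 0.640 points in cKO. The genotypes differed by -3.26 points (exact permutation p = 0.1, the smallest that 3 against 3 allows, adjusted p = 0.25), and by -1.14 points within the second scan.

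Detection was reproducible for most members. Of the 8497 EP3B probes, 1824 (21.5%) were detected on all 6 arrays in the IP and in the supernatant alike, and 3855 (45.4%) were so in neither channel on any array. The corresponding shares of EP3A probes were 30.9% and 31.1%. In all, 91 EP3B probes (1.07%) were detected in the IP on all 6 arrays and never in the supernatant, against 1.24% of EP3A probes. The opposite pattern was shown by 10 EP3B probes (0.118%), against 0.166% of EP3A probes. Among EP3B probes detected in the IP on every array, the share also detected in the supernatant differed from that of EP3A probes of like IP signal by between -0.910 and 0.487 percentage points per array. In the reverse direction, for the IP at like supernatant signal, the range was -0.683 to 0.123 points. At like signal in one channel the classes were thus detected about equally often in the other.

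The signal of a probe is given as log2 of the processed intensity relative to the 75th percentile of all non-control probes of the same array and channel. The median EP3B signal in the IP was -3.13, -3.26 and -2.92 on the WT arrays and -3.26, -3.15 and -3.22 on the cKO arrays. It lay 1.17 below the EP3A median on average (difference -1.17 ± 0.08, SD, n = 6, adjusted exact p = 0.0391). In the supernatant the difference was -1.29 ± 0.18 (adjusted exact p = 0.0391). The gap was much smaller among detected probes. For probes that were detected on every array the difference of the medians was -0.09 in the IP and 0.02 in the supernatant, and with a normal-exponential background correction over all probes it was -0.19 and -0.14. The genotype difference of the gap over all probes was -0.08 in the IP (exact permutation p = 0.3) and -0.10 in the supernatant (exact permutation p = 0.7), neither of which passed.

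The class nevertheless held very bright probes. ASMM10EP3B104529199 had the highest mean IP signal, with 9.36, 9.45 and 9.36 on the WT arrays and 9.13, 9.21 and 9.43 on the cKO arrays. Its supernatant signal was also high, from 7.66 to 8.19. ASMM10EP3B102402890 followed in the IP, with 9.04 to 9.28. In the supernatant ASMM10EP3B104516129 was the brightest, with 9.24, 8.66 and 8.65 in WT against 8.52, 8.77 and 8.91 in cKO, and ASMM10EP3B100014846 was next, with 8.25 to 9.38. None of these 4 probes passed the test of genotype in its leading channel (limma adjusted p from 0.646 to 0.939).

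The m6A ratio is log2 of IP over supernatant signal minus the median of that value on the same array. It was read for the 3040 EP3B probes detected in both channels on at least 3 arrays. Their median ratio was 0.20, -0.05 and 0.30 on WT arrays 1 to 3 and 0.06, 0.09 and -0.03 on cKO arrays 1 to 3. Over all 6 arrays 539 of them averaged more than 2-fold above the array median and 530 more than 2-fold below it. Of these, 99 lay more than 4-fold above and 150 more than 4-fold below. Shares over 2-fold were also taken per genotype, from the median of all probes passing the same filter. In WT the share was 40.8% of EP3B probes, 42.5% of all probes and 41.8% of EP3A probes of like signal. In cKO these shares were 31.0%, 32.8% and 32.2%, so EP3B probes were close to the rest of the array. The 4-fold counts were not set against other probes.

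Ratios of single probes were alike from array to array. Pearson's r across EP3B probes ran from 0.762, between WT array 2 and cKO array 1, to 0.935, between cKO arrays 2 and 3. Probes are not independent replicates, so r is given without a test. The spread of ratios was wider in WT. The interquartile range was 1.51, 1.71 and 1.93 on the WT arrays and 1.27, 1.38 and 1.34 on the cKO arrays, without overlap (exact permutation p = 0.1, the smallest possible). WT array 2 was also above the 3 cKO arrays of its own scan. EP3A probes of like signal had similar interquartile ranges on the same arrays, from 1.31 to 1.92.

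A large part of the class stood apart from the array median in each genotype. In WT 1973 EP3B probes passed limma's test at an adjusted p under 0.05, 1115 higher and 858 lower. That is 64.9% of those tested, against 66.5% of all 28362 probes tested (36.8% higher and 29.7% lower) and 65.8% of EP3A probes of like signal. In cKO 1657 passed, 846 higher and 811 lower, which is 54.5% against 56.7% of all probes (26.6% higher and 30.1% lower) and 55.9% of EP3A probes of like signal. In both genotypes the share was close to that of the array as a whole. Under the normal-exponential correction the counts were 1262 in WT (41.5%, against 42.8% of all probes) and 1018 in cKO (33.5%, against 34.0%), of which 72.3% and 65.0% were higher rather than 56.5% and 51.1%. Over probes detected on all 6 arrays 46.1% of the WT calls and 45.1% of the cKO calls were higher, so the balance of the directions depends on the processing.

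Most of these calls were shared. Of the EP3B probes 779 were called higher in both genotypes, 695 lower in both and 5 in opposite directions. The shared calls, 1479 in all, are 75% of the WT calls and 89.3% of the cKO calls. These shares were 75.2% and 88.2% over all probes tested and 74.3% and 87.4% over EP3A probes of like signal, so the sharing was that of the array as a whole.

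Among probes called the same way in both genotypes and detected in both fractions on every array, the highest mean ratio belonged to ASMM10EP3B101871803, with 3.26, 4.88 and 3.46 on the WT arrays and 3.72, 3.33 and 3.31 on the cKO arrays (limma adjusted p = 1.4e-05 in WT and 3.83e-05 in cKO). All 6 values were far above the array medians, and the genotypes overlapped. ASMM10EP3B103941649 was next, with 2.45, 3.67 and 3.06 in WT against 3.04, 3.99 and 3.26 in cKO.

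At the low end of the same probes, ASMM10EP3B105683411 had ratios of -4.76, -5.46 and -4.90 in WT against -3.93, -4.75 and -4.35 in cKO (limma adjusted p = 1.64e-06 and 3.89e-06). Its RNA was bright in the supernatant, from 4.53 to 5.46, and about as bright as the 75th percentile of the array in the IP, from -0.36 to 0.64. The 3 WT ratios lay below the 3 cKO ratios, with a difference of 0.70 ± 0.30 (SE) that did not pass the test of genotype (limma adjusted p = 0.299). ASMM10EP3B100004132 had ratios of -5.15, -4.15 and -5.12 in WT against -4.72, -4.24 and -4.75 in cKO, with overlap between the genotypes.

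EP3B probes were compared with EP3A probes of like signal within 10 bins of mean signal. The difference in median ratio was -0.04, -0.06 and -0.03 on WT arrays 1 to 3, and 0.08, 0.05 and 0.02 on cKO arrays 1 to 3. All WT arrays were below 0 and all cKO arrays above it. Over the 6 arrays the mean was 0.00 ± 0.06 (SD), and no class difference was shown (exact sign-flip p = 0.844). The genotypes differed by 0.10 (exact permutation p = 0.1, the smallest possible, adjusted p = 0.25), and by 0.12 within the second scan. The size of this shift is small beside the interquartile range of the ratios given above.

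By bin, the class difference was not uniform. In the brightest bin the median ratio was 0.18 for 304 EP3B probes and -0.01 for 2584 EP3A probes, a difference of 0.19 ± 0.08 (SD over arrays) with the same sign on 6 of 6 arrays. In the eighth bin it was -0.13 ± 0.11, with 1 of 6 arrays higher. The bins were looked at after the mean over bins, and these values are a description without a test. The scatter between arrays of a genotype was slightly larger for EP3B probes, with a median residual SD of 0.38 against 0.36 for EP3A probes of like signal, and larger in 8 of 10 bins.

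No EP3B probe had an m6A ratio that differed between cKO and WT at an adjusted p under 0.05 in limma, where 0.00353% of all probes tested were called. Centring each array on its own median removes a shift shared by all its probes, so this test cannot show such a shift. At an unadjusted p under 0.05 there were 407 of 3040 EP3B probes (13.4%), against 16.2% of all probes and 17.0% of EP3A probes of like signal. The ratios of the genotypes did not overlap for 577 of the 3014 EP3B probes with a value on every array (19.1%), against 22.4% of all probes. The members were thus not called more often than the rest of the array.

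The direction of the unadjusted differences depended on the probes used for centring and on the model. As centred here 152 were higher and 255 lower in cKO, with a median difference of -0.09 over EP3B probes and -0.14 over all probes tested. Centred on EP3A probes 176 were higher and 246 lower. Centred on spike-in controls 117 were higher and 274 lower, with a median difference of -0.18 over EP3B probes and -0.24 over all probes tested. With arrays centred on the probes tested, a choice made after seeing the data, 328 were higher and 166 lower. That centring moves the median of all probes to 0.03. With scan as a block 267 were higher and 122 lower. As first centred 5% of EP3B probes were higher and 8.39% lower, against 3.7% and 12.5% of all probes and 3.24% and 13.8% of EP3A probes of like signal.

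Restricted to the 1824 EP3B probes detected in both channels on all 6 arrays, limma called 14, all with a lower ratio in cKO, by 0.90 to 1.52 on the log2 scale. That is 0.768% of these members, against 1.69% of all 17780 probes so tested (1.61% lower) and 1.91% of the EP3A probes. With scan as a block, over the wider set of 3040, no EP3B probe passed. ASMM10EP3B100016483 had ratios of 2.90, 3.24 and 3.04 in WT against 1.07, 1.84 and 1.72 in cKO. All WT values exceeded all cKO values, with a difference of -1.52 ± 0.27 (SE) and a limma adjusted p of 0.0837 over the wider set and 0.0175 over the restricted set. Over the wider set it did not pass with the normal-exponential correction or without dye normalisation (limma adjusted p = 0.823 and 0.210). It passed when loess was added to that correction (limma adjusted p = 0.0247). Its IP signal was 5.15, 4.80 and 4.96 in WT against 4.28, 4.66 and 4.90 in cKO. Its supernatant signal was 2.39, 1.55 and 2.13 in WT against 3.17, 2.88 and 3.14 in cKO, so the groups stood apart in the supernatant and overlapped in the IP.

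ASMM10EP3B105516858 had ratios of 1.52, 1.98 and 1.78 in WT against 0.47, 0.61 and 0.65 in cKO, with a difference of -1.19 ± 0.22 (SE, limma adjusted p = 0.0923, and 0.0231 over the restricted set). Over the wider set it did not pass with the normal-exponential correction, without dye normalisation or with loess (limma adjusted p = 0.823, 0.253 and 0.105). The groups did not overlap.

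Among probes with a higher ratio in cKO, ASMM10EP3B100010446 had -0.15, -0.60 and -0.44 in WT against 1.19, 0.46 and 0.47 in cKO, and ASMM10EP3B106540689 had -0.36, -0.28 and -0.43 in WT against 1.1, 0.24 and 0.63 in cKO. Neither passed (limma adjusted p = 0.149 and 0.161), although the groups did not overlap in either.

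The smallest p of all EP3B probes belonged to ASMM10EP3B100002005, which was named after its values were seen. Its ratios were 2.08, 3.46 and 3.26 in WT against -0.35, -0.05 and -0.18 in cKO (limma adjusted p = 0.0549). In WT its supernatant spot was not well above background on any array, so it met the filter only through the cKO arrays and the WT ratios carry only a bound. Set against that bound the supernatant showed no difference that could be given as a fold, so no size is given for the ratio. Its IP signal was -0.17, -0.57 and -0.04 in WT against -2.10, -1.84 and -1.67 in cKO, a difference of -1.61 ± 0.24 (SE, limma adjusted p = 0.0604, and 0.0319 over probes detected in the IP on every array).

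In the IP fraction 2 of 3735 EP3B probes differed between genotypes at an adjusted p under 0.05 (0.0535%), against 0.104% of all 33517 probes tested. One was higher and the other lower in cKO. At an unadjusted p under 0.05 there were 434 members (11.6%), against 11.8% of all probes, and the genotypes did not overlap for 595 of 3709 (16.0%), against 17.7%. Over probes detected in the IP on every array 4 of 2979 members passed (0.134%, against 0.168% of all), 1 higher and 3 lower. ASMM10EP3B100014740 fell, with 4.80, 3.50 and 4.73 in WT against 1.07, 0.40 and 1.46 in cKO. The lowest WT array lay well above the highest cKO array, and the difference was -3.36 ± 0.40 (SE, limma adjusted p = 0.0401). Its supernatant signal was 2.25, 1.1 and 1.30 in WT against -1.77, -0.98 and 0.09 in cKO (difference -2.44 ± 0.49, limma adjusted p = 0.115). Within the second scan the IP difference was -2.52, and with scan as a block it did not pass (limma adjusted p = 0.168). The call held without WT array 2 and was lost without any one of the other arrays (limma adjusted p from 0.0813 to 0.231), as it was with the normal-exponential correction, where the difference was -2.77 (limma adjusted p = 0.116).

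ASMM10EP3B100038719 was the probe that was higher. Its IP signal was -4.26, -4.82 and -3.62 in WT, where it was not well above background on any array, and -1.76, -1.78 and -1.15 in cKO, where it was detected on 3 of 3 arrays (limma adjusted p = 0.0401). It met the filter only through the cKO arrays, where it is high, so the call is no independent support for a difference. Since the WT level is only a bound, the cKO level was at least 1.25-fold higher, computed from loess-normalised signals against the dimmest detected probes. Its supernatant was not well above background on any array. Leaving out any 1 of the 6 arrays ended this call, with limma adjusted p from 0.0737 to 0.231, and with the normal-exponential correction the difference was 0.35 (limma adjusted p = 0.263).

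In the supernatant 2 of 3338 EP3B probes passed (0.0599%), both higher in cKO, against 0.225% of all 31172 probes tested (0.205% higher). At an unadjusted p under 0.05 there were 278 members (8.33%), against 10.3% of all probes, and the genotypes did not overlap for 476 of 3312 (14.4%), against 16.7%. ASMM10EP3B100004483 had -2.94, -3.22 and -3.24 in WT against -1.32, -1.13 and -0.35 in cKO (limma adjusted p = 0.0326). ASMM10EP3B103961604 had -2.35, -2.73 and -2.44 in WT against -0.88, -0.65 and -0.33 in cKO (limma adjusted p = 0.0265). Neither was well above background on any WT array. Both met the filter only through the cKO arrays, where they are high, so these calls are no independent support for a difference, and over probes detected on all 6 arrays no EP3B probe was called higher. Against the WT bound in loess-normalised signals the cKO levels were 1.32-fold and 1.31-fold higher (0.40 and 0.39 on the log2 scale). These values hold for that processing only and are no lower limit under others. With the normal-exponential correction without loess the log2 differences were smaller, at 0.25 and 0.26, and neither passed (limma adjusted p = 0.714 for both). The first call held only without WT array 3 among the arrays left out (limma adjusted p from 0.0627 to 0.162 otherwise). The second held without WT array 1 or 3 (from 0.0639 to 0.171 otherwise). With scan as a block neither passed (limma adjusted p = 0.245 and 0.189). ASMM10EP3B100004483 was detected in the IP on all 6 arrays, with -2.20, -1.84 and -1.36 in WT against -0.07, -0.03 and 0.70 in cKO (difference 2.00 ± 0.30, limma adjusted p = 0.069, and 0.0371 over probes detected in the IP on every array). With the signals scaled on the median in place of the 75th percentile, 4 EP3B probes passed, 1 higher and 3 lower (0.120%, against 0.189% of all probes). That scaling moves the median difference of all probes to -0.24.

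Over the probes detected in the supernatant on all 6 arrays 4 of 1897 EP3B probes were called lower in cKO (0.211%, against 0.108% of all 18576 called lower and 0.371% called in either direction). ASMM10EP3B104102539 had -0.02, 0.40 and 0.63 in WT against -1.23, -0.97 and -1.48 in cKO. Its difference was -1.56 ± 0.25 (SE, limma adjusted p = 0.0595 over the wider set, 0.0254 over the restricted set and 0.0435 with median scaling). ASMM10EP3B101789950 had 2.00, 1.82 and 2.17 in WT against 0.62, 0.00 and 0.80 in cKO, a difference of -1.53 ± 0.26 (SE, limma adjusted p = 0.0724 and 0.0358). In both the IP differed in the same direction, by -1.03 ± 0.22 and -1.39 ± 0.21 (SE), and the m6A ratio differed by 0.41 and 0.02.

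The numbers that follow the prefix divided the class into 2 ranges, which were looked at after the values were seen. A dense range from 100000013 to 100058240 held 3114 probes, and the numbers from 100060888 to 107750178 held the other 5383. The low range was detected less often in the IP, with 33.6% to 35.8% of its probes per array against 45.7% to 49.7% in the high range. Where a ratio could be read (864 and 2176 probes), the low range had the higher one, with array medians of 0.23 to 0.68 against -0.13 to 0.16. At like signal this difference was 0.42, 0.34 and 0.57 on WT arrays 1 to 3 and 0.42, 0.38 and 0.42 on cKO arrays 1 to 3, so the low range was above the high range on 6 of 6 arrays. EP3A probes, split between 100259985 and 100260135, showed differences of 0.37 to 0.60, so this feature was common to both classes.

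In WT 47.7% of the low-range EP3B probes were called higher and 21.8% lower, against 32.3% and 30.8% in the high range. In cKO the shares were 38.9% and 16.9% against 23.4% and 30.6%. Between genotypes the median difference in ratio was -0.09 in both ranges.

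Probes with neighbouring numbers showed little likeness. Over 1922 pairs of EP3B probes with consecutive numbers, r of the mean signals was 0.01, and over the 133 pairs with a ratio in both it was 0.11 for the ratio. A number was shared with an EP3A probe in 137 cases, with r of -0.04 for the mean signal, and 20 of these had a ratio in both classes (r = 0.28). These correlations are over probes on the same arrays and are given without a test. EP3B probes were spread evenly over the array surface, with 13.2% to 14.5% of the non-control spots in each of 8 bands of rows and 4 bands of columns.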

How the data were processed

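The deposited intensity values are linear scanner signals of both colours, made by the authors with Agilent Feature Extraction 11.0.1.1, per the submitters' processing notes. Per the file headers the processed signals are background-subtracted and dye-normalised. The log2 values derived from them here come from R 4.3.3, using limma 3.58.1 and the data.table package (1.17.8). Control spots, 102 spike-in sequences and negative controls were left out of the values and tests, as were spots marked as outliers (34 EP3B values of 30 probes, so those fits use fewer arrays). No EP3B spot was saturated. Ratios were centred on the array median without loess. Ratio tests took probes detected in both channels of the same array on at least 3 of 6 arrays, and tests of a fraction used its own channel. The genotype tests used lmFit and eBayes from limma on every probe passing the filter, with Benjamini-Hochberg adjustment over all of them, and class values with exact permutation over arrays. The computations were tested on simulated data.

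Per the labels the 6 animals are biological replicates, and 3 arrays per genotype limit the precision. At most 2 probes per direction and comparison are named: the most extreme ratios called in both genotypes, the largest differences past the threshold, and otherwise the smallest p among probes detected on all 6 arrays. The 2 brightest probes of each channel are also named. The members and lists were chosen with earlier results of these data known. Alternatives were other background corrections, filters, centrings, bins and scalings, scan or replicate number as a block, and each array left out.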

Additional observations from a re-analysis of the deposited data

Results flagged for a closer look

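The difference in median m6A ratio between EP3B probes and EP3A probes of like signal had opposite signs in the 2 genotypes. It was -0.04, -0.06 and -0.03 on the WT arrays and 0.08, 0.05 and 0.02 on the cKO arrays. The genotypes differed by 0.10 (two-sided exact permutation p = 0.1, the smallest that 3 against 3 allows), so the test could not reach the threshold. Under 17 settings, the reported one included, the cKO arrays used lay above the WT arrays used each time. In 15 of them all WT arrays used were below 0 and all cKO arrays used above it. These settings draw on the same arrays, and several only leave arrays out, so they are no independent support for the difference. Supernatant detection of EP3B probes was lowest on WT arrays 1 and 3, the arrays of the first scan, with 29.1% and 23.0%, and on WT array 2 it lay within the cKO range, at 40.8%. Its part in the difference was not tested. Within the second scan the difference was 0.12, with 1 WT array.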

How the results depend on the processing

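The class gaps in detection kept their direction under the alternatives run, though with fewer than 6 arrays the exact test cannot pass. Over probes detected on all 6 arrays the supernatant signal gap reversed to 0.0184. The mean ratio difference at like signal, near 0, reversed to -0.0026 with 20 bins and to -0.0102 with bins of the supernatant signal. Its genotype difference stayed above 0, at 0.0664 with the normal-exponential correction, 0.0568 with loess and 0.0474 without a filter. Ratio calls against the array median were 1262 in WT and 1018 in cKO with the normal-exponential correction.

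Genotype calls were few and moved with most choices. For the ratio they were 2 with loess (0.0658%, against 0.423% of all probes) and 14 over probes detected on all 6 arrays (0.768% against 1.69%). With an array left out they were 0 to 1, the 1 being without WT array 1 (0.0329% against 0.00353%). For the IP they were 0 with the normal-exponential correction, with loess, without a filter and with scan as a block. They were 4 over probes detected on all 6 arrays (0.134%, against 0.168% of all probes). With a trended robust fit they were also 4 (0.107% against 0.209%). With an array left out they were 0 to 1, the 1 being without WT array 2 (0.0268% against 0.0328%). For the supernatant they were 0 with both corrections, without a filter and with scan as a block, 4 over probes detected on all 6 arrays and with median scaling, 8 with a trended robust fit, 7 within the second scan and 0 to 2 with an array left out. The causes were not tested.

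The labels name no pairing of animals across genotypes, and the main tests used none. For the ratio the deviations of same-numbered arrays correlated at 0.33, 0.27 and 0.08, and every array correlated best with its own number. In the IP 5 of 6 arrays did so, and in the supernatant 2 of 6. Whether the replicate numbers pair the arrays was not tested. With the replicate number as a block the calls were 0 for the ratio, 2 for the IP (0.0535%, against 0.0328% of all probes) and 0 for the supernatant. The 2 supernatant calls then had limma adjusted p of 0.137 and 0.132. The probes named for a ratio called in both genotypes kept its sign in WT, and those named for a genotype difference kept the sign of that difference, under the alternatives run. For the 2 probes brightest in the supernatant, whose genotype differences were not called, -0.12 and -0.46 became 0.07 and 0.08 within the second scan. Signals near background limit the fold changes of dim probes. Centring on the probes tested, and class values within the second scan, were alternatives chosen after seeing the data.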
